A study of Rattus norvegicus with 72 samples.

Results

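The genes described are 9 genes of glutathione metabolism and of the antioxidant response driven by the transcription factor NRF2: Gclc, Gclm, Gss, Gsr, Ggt1, Txnrd1, Srxn1, Nqo1 and Hmox1. They were taken by symbol from the deposited count tables, which hold 32545 genes. Each of the 9 symbols has a single Ensembl gene ID there (Gclc is ENSRNOG00000006302, Srxn1 is ENSRNOG00000031167). All 9 passed the filter on low counts in every comparison. All rats were adult males of the outbred Sprague-Dawley strain on normal chow, and only left kidneys were sampled. Rats had undergone right nephrectomy, or a sham operation in which the right renal pedicle was dissected before closure, and the tissue was collected 24, 48 or 72 h afterwards. For each surgery and time there were 4 libraries of microdissected glomeruli, 4 of microdissected S1 tubules (where the proximal tubule begins) and 4 of whole kidney. Glomerulus and S1 RNA was amplified with NuGEN Ovation V2 and read from 1 end, and whole kidney RNA went into Illumina TruSeq Stranded libraries read from both ends. Of the 72 libraries, 70 were used. Whether each library of a group stands for its own rat is not in the labels, and p-values then reflect only library-to-library spread, which may be technical.

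Glutathione is a tripeptide that serves as the main thiol antioxidant of cells. Glutamate-cysteine ligase makes the first bond and sets the rate of synthesis; Gclc encodes its catalytic and Gclm its modifier subunit. Gss encodes glutathione synthetase, which adds glycine, and Gsr encodes glutathione reductase, which returns the oxidised form to the reduced one with NADPH. Ggt1 encodes gamma-glutamyltransferase, an enzyme of the proximal tubule brush border that starts the breakdown of extracellular glutathione. Txnrd1 encodes cytosolic thioredoxin reductase, Srxn1 sulfiredoxin, which repairs over-oxidised peroxiredoxins, Nqo1 a quinone reductase and Hmox1 the inducible haem oxygenase. NRF2 (gene Nfe2l2) is degraded through KEAP1 in resting cells, and on oxidative or electrophilic stress it accumulates and binds antioxidant response elements near many of these genes.

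Upstream sequence was taken for 7 of the 9 genes from a RefSeq promoter table (build GRCr8). It was searched on both strands for the core of the antioxidant response element, TGACNNNGC, and for TGAGTCA, the form shared with AP-1 sites. The core occurs in 10.1% and TGAGTCA in 4% of all 33469 windows of 250 bases upstream of a start. The windows of 3 classical NRF2 targets, each with its start at the edge of the annotated gene, are shown 5′ to 3′ on the gene's strand, with matches in capitals. They are Gclm at chr2:213031885-213032134 on the + strand, Srxn1 at chr3:161064562-161064811 on the + strand and Nqo1 at chr19:52220268-52220517 on the - strand.
Gclm: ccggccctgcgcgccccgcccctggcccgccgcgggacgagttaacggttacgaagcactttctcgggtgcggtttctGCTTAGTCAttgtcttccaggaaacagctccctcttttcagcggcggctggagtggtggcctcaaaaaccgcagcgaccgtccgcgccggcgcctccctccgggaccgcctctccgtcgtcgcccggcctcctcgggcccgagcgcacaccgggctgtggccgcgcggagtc
Srxn1: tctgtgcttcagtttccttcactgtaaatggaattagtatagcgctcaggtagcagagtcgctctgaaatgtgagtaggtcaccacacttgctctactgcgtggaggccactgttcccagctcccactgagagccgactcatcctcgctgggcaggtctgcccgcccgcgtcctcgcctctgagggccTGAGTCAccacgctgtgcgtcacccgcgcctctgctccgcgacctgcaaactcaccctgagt
Nqo1: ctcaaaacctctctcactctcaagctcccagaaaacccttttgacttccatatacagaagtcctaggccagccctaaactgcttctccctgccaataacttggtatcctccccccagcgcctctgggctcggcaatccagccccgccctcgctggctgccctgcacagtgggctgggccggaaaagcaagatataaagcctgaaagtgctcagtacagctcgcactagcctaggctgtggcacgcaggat
The Gclm match lies on the reverse strand and begins 172 bases before the start. The Srxn1 match begins 62 bases before it. Of the other windows, 1 of 2 starts of Txnrd1 had the core, 78 bases before the start, and those of Gclc, Gss and Ggt1 had neither string. The Nqo1 window holds neither string, which says only that these letters are not in this window.

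Gene counts per library (in M, mega-counts) ran from 2.64 to 37.41 M in glomeruli, 7.88 to 87.37 M in S1 tubules and 10.1 to 55.52 M in whole kidney, among the libraries used. Mitochondrial genes took a median of 16.1%, 58.5% and 55.25% of them. The summed level of 8 podocyte markers had a median of 16857 CPM (counts per M, after scaling) in glomeruli and 44.3 in S1 tubules. That of 8 early proximal tubule markers was 10032 CPM in S1 tubules and 1384 in glomeruli, so both dissections carried the markers of their labels. Glomeruli also carried 6 loop of Henle and distal tubule markers unevenly, with a median of 414 CPM (5.23 to 1119), against 33.1 in S1 tubules. These ran from 414 to 892 CPM in glomeruli at 48 h after sham, and from 8.97 to 33.4 at 72 h. Their part in the glomerulus levels was not tested. The sham 24 h pair of segment libraries numbered 2 was left out. The library of that pair labelled glomeruli had 37.6 RPKM of Ggt1, against 0.146 to 4.12 in the 23 others of that label, and its S1 partner had 4.07 of Nqo1, against 0 to 1.37.

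Further libraries stood apart and bear on the results. In the S1 nephrectomy library of 72 h numbered 2, only 8% of uniquely placed reads fell in genes, against a median of 63.1% in S1 tubules. It had lower CPM than the other 22 S1 libraries for Ggt1 (1.39), Gss (6.32), Gsr (6.32), Hmox1 (0.126) and Txnrd1 (57.8), and higher for Srxn1 (3.92). The glomerulus libraries used had a median share in genes of only 24.4%, from 2.9 to 40.1%. In whole kidney, the 24 h libraries numbered 3 and 4, of both surgeries, had 0.379 to 1.86 CPM of Slc5a2, the glucose transporter of the early proximal tubule, against 18.4 to 283 in the other 20. Their mitochondrial share was 71 to 80.6%, against 36 to 66.3% in the others.

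After sham surgery the levels of the 9 genes were compared per length, as deposited RPKM (reads per kilobase and M) for segments and FPKM (fragments) for whole kidney. In whole kidney the enzymes of glutathione synthesis and breakdown led. Gclc had a median of 1107 FPKM over 12 libraries (657 to 1332), which put it at rank 15 among nuclear genes. Gclm followed with 475 FPKM (283 to 676), and Ggt1 with 311 (144 to 352). The 3 genes kept this order within each library: Gclc exceeded Gclm, and Gclm exceeded Ggt1, in 12 of 12. Gss had 128 FPKM (55.8 to 179.6), Gsr 94 (35.3 to 137) and Txnrd1 32.7 (11.8 to 60.7). The inducible genes were low, at 4.33 FPKM for Nqo1 (2.17 to 10.4), 2.27 for Srxn1 (0.447 to 4.88) and 2.19 for Hmox1 (0.692 to 6.29). Srxn1 was above Hmox1 in only 5 of 12 libraries, so the order of these last genes is not fixed.

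S1 tubules showed a flatter profile. Gsr had a median of 34.3 RPKM over 11 libraries (20.6 to 56.8), Txnrd1 32.8 (19.7 to 41.3), Ggt1 29.9 (20.1 to 51.1) and Gclm 25.5 (15.7 to 46.2). Gss had 18.5 RPKM (7.12 to 75.8) and Gclc 16.6 (12 to 27.3). Between Txnrd1 and Gclc each gene exceeded the next in only 6 or 7 of 11 libraries, so neighbours in that order did not differ beyond their spread. Hmox1 had 1.7 RPKM (0.792 to 3.04) and Nqo1 0.366 (0.0256 to 0.889). Srxn1 was near the floor, with a median of 0.0227 RPKM (0 to 0.63), from 0 to 20 reads per library and no read in 5 of 11.

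In glomeruli the highest medians were those of Txnrd1, at 22 RPKM (14.6 to 24.1), and Gss, at 19.3 (12.8 to 46.9). Txnrd1 exceeded Gss in 7 of 11 libraries, and the mean of Gss was the higher at 24 h (24.4 against 22.5) and 72 h (28.4 against 22.6), so their order is not fixed. Gsr followed at 13.4 (10.2 to 17.1), Gclc at 12.5 (8.53 to 20.6) and Gclm at 9.69 (6.04 to 15.3); Gsr exceeded Gclc in 6 of 11 libraries and Gclc exceeded Gclm in 10. Nqo1 had 4.32 RPKM (2.79 to 6.71) and Hmox1 3.07 (1.83 to 11.1), and Nqo1 was the higher of these in 5 of 11 libraries. Ggt1 was low at 0.799 RPKM (0.146 to 2.92), as was Srxn1 at 0.735 (0.124 to 2.01).

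**Figure D1:**
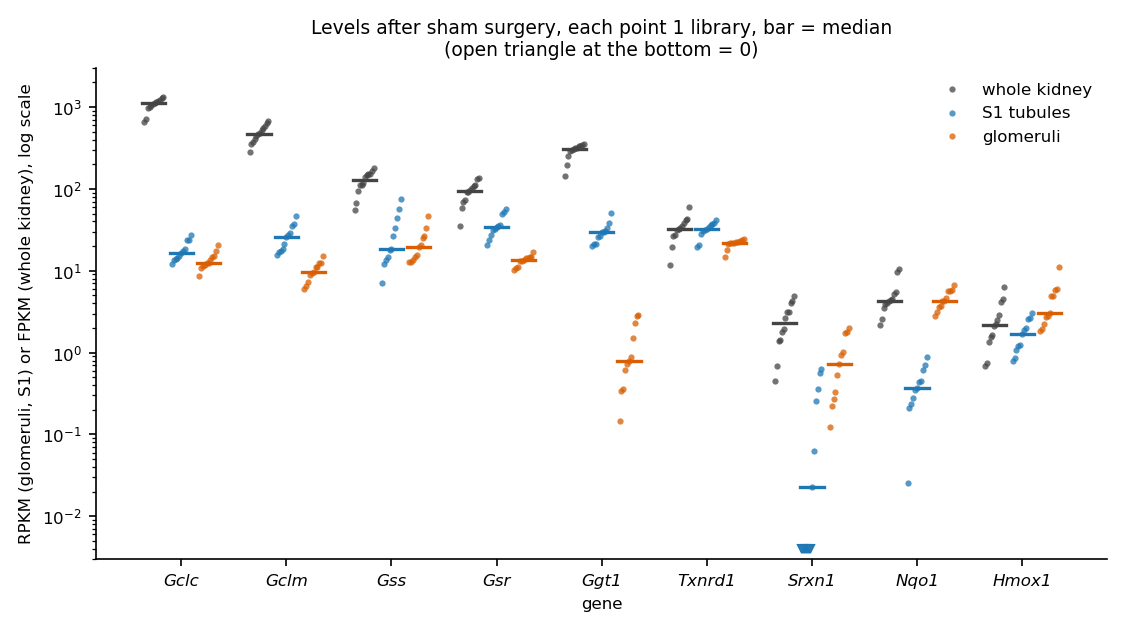
Level of each gene after sham surgery, in RPKM (glomeruli and S1 tubules, 11 libraries each) or FPKM (whole kidney, 12 libraries) on a log axis; points are libraries, bars medians and open triangles libraries at 0. Gclc, Gclm and Ggt1 sit far higher in whole kidney (medians 1107, 475 and 311) than in S1 tubules (16.6, 25.5 and 29.9), whereas Txnrd1 lies at 32.7 and 32.8.

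Whole kidney and segments come from other kits and other tables, so their levels stand side by side without a test, and kit and tissue cannot be told apart. The ratio of the whole kidney to the S1 median was 66.3 for Gclc, at the 98.1 percentile of 7859 genes with enough signal, whose median ratio was 1.48. It was 18.6 for Gclm, 10.4 for Ggt1, 6.91 for Gss and 2.74 for Gsr. Low-level genes were also among the high ratios, with 19.3 for Srxn1, near the floor in S1 tubules, and 9.51 for Nqo1. For Hmox1 it was 1.27 and for Txnrd1 0.997. The summed level of 6 markers of the late proximal tubule and outer stripe had a median of 1859 CPM in whole kidney and 543 in S1 tubules, and their part in the ratios was not tested. Without mitochondrial genes in the totals, the ratio was 57.4 for Gclc and 19 for Gclm. The subunits of glutamate-cysteine ligase also stood in another proportion: within libraries, Gclc was 2.29 times Gclm in whole kidney (1.83 to 2.65), 0.65 times in S1 tubules (0.48 to 1.52) and 1.4 times in glomeruli (0.82 to 2.22).

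Glomeruli and S1 tubules share kit and table and were tested against each other with edgeR's quasi-likelihood test after sham surgery, as the mean over the times. Of the 9 genes, 7 passed an adjusted p of 0.05, 6 lower and 1 higher in glomeruli; over all genes 39.7% passed, 18.6% lower and 21.1% higher. The median log2 fold change of the 9 genes was -2.18, and that of all genes 0.69, so the genes are read against that shift. Fewer cells of a type and less RNA per cell cannot be told apart in bulk RNA. Mitochondrial genes take a larger share of the S1 counts. Dividing by library totals alone moves the all-gene median to 2.37.

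Ggt1 differed most, with a log2 fold change of -6.42 ± 0.49 (SE; edgeR adjusted p = 9.08e-16). Gsr stood at -3.20 ± 0.30, Gclm at -3.19 ± 0.28, Txnrd1 at -2.30 ± 0.19 and Gclc at -2.18 ± 0.22, all lower in glomeruli. Gss had 0.25 times its S1 level (95% interval 0.17 to 0.37). These enzymes make, recycle or break down glutathione, or reduce thioredoxin. Nqo1 was the only member called higher in glomeruli, by 1.80 ± 0.40 (edgeR adjusted p = 0.000183). Hmox1 at -0.51 ± 0.40 and Srxn1 at 1.37 ± 0.78 did not pass. The scaling decides some of these calls. With library totals Ggt1 stayed at -4.64, Gsr at -1.43 and Gclm at -1.37, but Gclc was -0.39, Txnrd1 -0.57 and Gss -0.38, the last no longer called. Hmox1 turned to 1.21 and Srxn1 to 3.04, both then called higher. A change of scaling shifts all genes by nearly the same amount, so it cannot test distances from the all-gene median. These distances moved by at most 0.14: Ggt1 was at -7.11 and -7.01 under the respective scalings, Gclc at -2.87 and -2.76, Hmox1 at -1.20 and -1.16 and Nqo1 at 1.11 and 1.12.

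**Figure D2:**
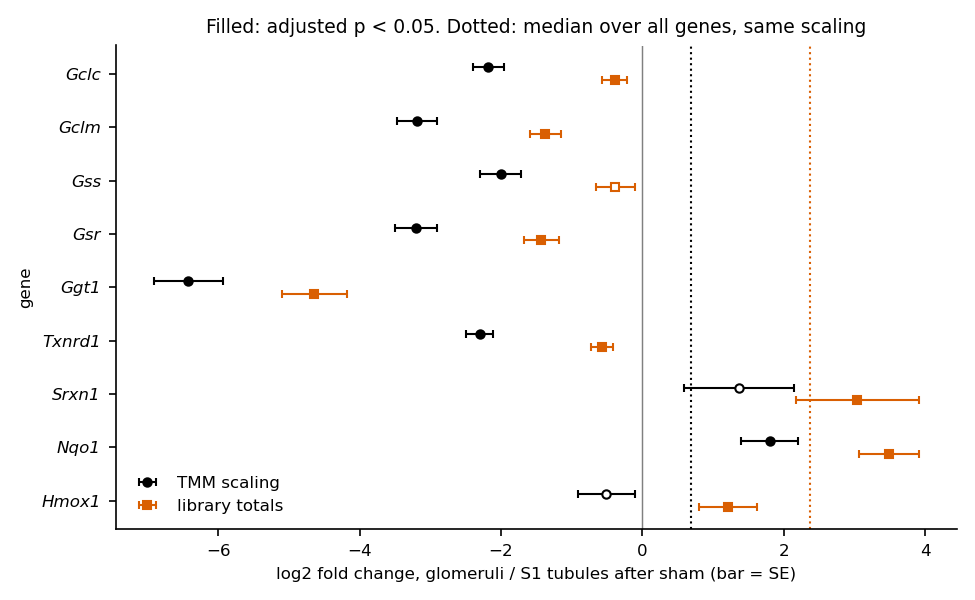
Log2 fold change of glomeruli over S1 tubules after sham surgery (11 libraries each), with SE, under TMM scaling (black circles) and library totals (orange squares); filled symbols have an adjusted p under 0.05 and dotted lines mark the all-gene medians of 0.69 and 2.37. Every gene moves right by about the shift of the median; Hmox1 crosses 0, from -0.51 to 1.21.

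Nephrectomy and sham were then compared at each time in each tissue, the comparison the design was made for: compensatory growth of the remaining kidney. In whole kidney 0 of the 9 genes passed the threshold at 24 h (0.236% of 15678 genes passed, 0.0893% higher and 0.147% lower), at 48 h (0% passed), at 72 h (0.00638%) or as the mean of the 3 times (2.86%). At an unadjusted p under 0.05 there was 1 member at 24 h, 1 at 48 h, 0 at 72 h and 2 in the mean over times, of 12.9%, 10.3%, 5.2% and 17.5% of all genes. DESeq2 called 1 member, Srxn1, in the mean over times (with 865 of all genes) and 0 at the single times. The groups of 4 did not overlap for 0 members at 24 h (3.31% of all genes), 2 at 48 h (7.23%) and 0 at 72 h (10.8%). The members' median log2 fold change over times was 0.03, beside -0.01 for all genes.

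Srxn1 came closest to the threshold. At 24 h the nephrectomy libraries had 1.83, 1.68, 2.89 and 1.78 CPM (20 to 63 reads), and the sham libraries 0.428, 1.46, 0.718 and 1.76 (8 to 51 reads). At 48 h they had 3.27, 3.01, 2.4 and 2.27, against 1.01, 1.12, 1.45 and 2.33. At 72 h they had 2.42, 3.29, 2.05 and 2.7, against 1.8, 2.4, 2.57 and 3.03. At 24 and 48 h all 4 nephrectomy libraries lay above the sham mean, while the groups overlapped through a single sham library each. At 72 h they overlapped throughout.

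The log2 fold change of Srxn1 was 0.82 ± 0.34 at 24 h, 0.89 ± 0.32 at 48 h and 0.09 ± 0.31 at 72 h. Its mean over the times was 0.60 ± 0.19, a 1.52-fold level with a 95% interval of 1.16 to 1.98, and 10 of 12 nephrectomy libraries lay above the sham mean of their time. The edgeR adjusted p was 0.0832. DESeq2 and some sets of libraries changed that call. The adjusted p was 0.0256 by DESeq2. By edgeR it was 0.0468, 0.0424 and 0.0432 without the sham library 24 h numbered 2, 24 h numbered 4 or 48 h numbered 4. The other single-library omissions gave 0.0841 to 0.145. No remaining alternative called Srxn1. Its adjusted p was 0.547 by edgeR on library totals, and 0.365 and 0.328 by limma on log2 values. A fit by edgeR that took the replicate number as a block gave 0.109. In these fits the log2 fold change of Srxn1 was 0.58, 0.46, 0.68 and 0.66, respectively. The effect was not shown to differ between times (edgeR adjusted p = 0.999).

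Hmox1, another of the inducible genes of low level, was uneven. At 72 h the nephrectomy libraries had 17.4, 4.01, 7.37 and 5.4 CPM, and the sham libraries 6.17, 2.77, 5.8 and 3.01. Of the nephrectomy libraries 2 stood above every sham library, 1 of them far above, and the other two lay within the sham range. The log2 fold change was 0.95 ± 0.46 at 72 h (edgeR adjusted p = 0.973) and 0.58 ± 0.27 over the times (95% interval 0.01 to 1.14, adjusted p = 0.274). Nqo1 had 7.7, 8.41, 9.53 and 6.12 CPM at 48 h after nephrectomy, against 6.25, 5.51, 6.12 and 6.27 after sham. Its mean log2 fold change over times was 0.21 ± 0.17, with a 95% interval of -0.14 to 0.56.

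Gclc, the catalytic subunit, had its widest spread in the 24 h libraries. After nephrectomy it stood at 3958, 4174, 4720 and 4975 CPM, and after sham at 1699, 2567, 4744 and 5428. The last 2 values of each group are the libraries numbered 3 and 4, which also had the lowest Slc5a2. By CPM they hold the highest Gclc of the 24 libraries. The same holds for Gclm (893 to 1084 CPM, against 452 to 821) and Ggt1 (511 to 584, against 164 to 430.2). The other 6 genes overlapped between these libraries and the rest. CPM depends on the TMM factors, which were 0.685 and 0.615 for the nephrectomy libraries numbered 3 and 4. For the sham libraries of these numbers they were 0.452 and 0.586. As deposited FPKM, Gclc in these libraries was 1066 and 1010 after nephrectomy and 707 and 1051 after sham. On that scale the sham 24 h library numbered 2 was higher, at 1332. With all libraries the log2 fold change at 24 h was 0.30 ± 0.25 for Gclc and 0.20 ± 0.25 for Ggt1.

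Without those 4 libraries the 24 h comparison rests on 2 libraries a group. Gclc was then higher after nephrectomy by 0.93 ± 0.22 (edgeR adjusted p = 0.0103) and Ggt1 by 0.78 ± 0.22 (adjusted p = 0.0206), while Gclm stood at 0.47 ± 0.18 (adjusted p = 0.078). In that fit 2645 genes passed at 24 h, against 37 of 15678 with all libraries, so passing there was common. The scaling matters for Gclc: the TMM factors were 0.835 and 0.872 for the nephrectomy libraries and 1.172 and 1.572 for the sham libraries. As deposited FPKM, without that scaling, Gclc overlapped, with 1091 and 1201 after nephrectomy and 657 and 1332 after sham. For Gclc and Ggt1 the effect also differed between times there (edgeR adjusted p = 0.0135 and 0.0181), as it did for 1830 of all genes. At 48 h the direction was the other one: Gclc had 2444, 2817, 2348 and 1985 CPM after nephrectomy and 2933, 2740, 3735 and 3072 after sham, a log2 fold change of -0.38 ± 0.25. Over the times Gclc stood at -0.05 ± 0.14, or 0.15 ± 0.10 without those libraries, and it passed the threshold in neither fit (edgeR adjusted p = 0.884 and 0.436).

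Ggt1 at 48 h had 358, 349, 290.4 and 275 CPM after nephrectomy and 413, 371, 430.2 and 427 after sham. Txnrd1 had 97.3, 99.8, 100.3 and 98.1, against 109, 113, 103 and 113. These are the 2 genes whose groups did not overlap, both lower after nephrectomy. Their log2 fold changes were -0.37 ± 0.25 and -0.14 ± 0.15 (edgeR adjusted p = 0.603 and 0.724).

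Gss, Txnrd1 and Gsr had the smallest errors of the 9 genes. Over the times the log2 fold change in whole kidney was 0.06 ± 0.08 for Gss (95% interval -0.11 to 0.23), -0.04 ± 0.08 for Txnrd1 (-0.22 to 0.13) and -0.13 ± 0.09 for Gsr (-0.32 to 0.05). Gclm stood at 0.03 ± 0.13 (-0.23 to 0.30) and Ggt1 at -0.14 ± 0.15 (-0.44 to 0.17). For Gss the group means lay between 222 and 243 CPM in all 6 groups, from 222 ± 35 (SD, n = 4) for sham at 48 h to 243 ± 37.1 for nephrectomy at 72 h. Gsr at 24 h had 118, 127, 115 and 125 CPM after nephrectomy and 182, 98.3, 126 and 162 after sham. Its nephrectomy libraries were close together inside a wide sham range, and over the times 2 of 12 lay above the sham mean.

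**Figure D3:**
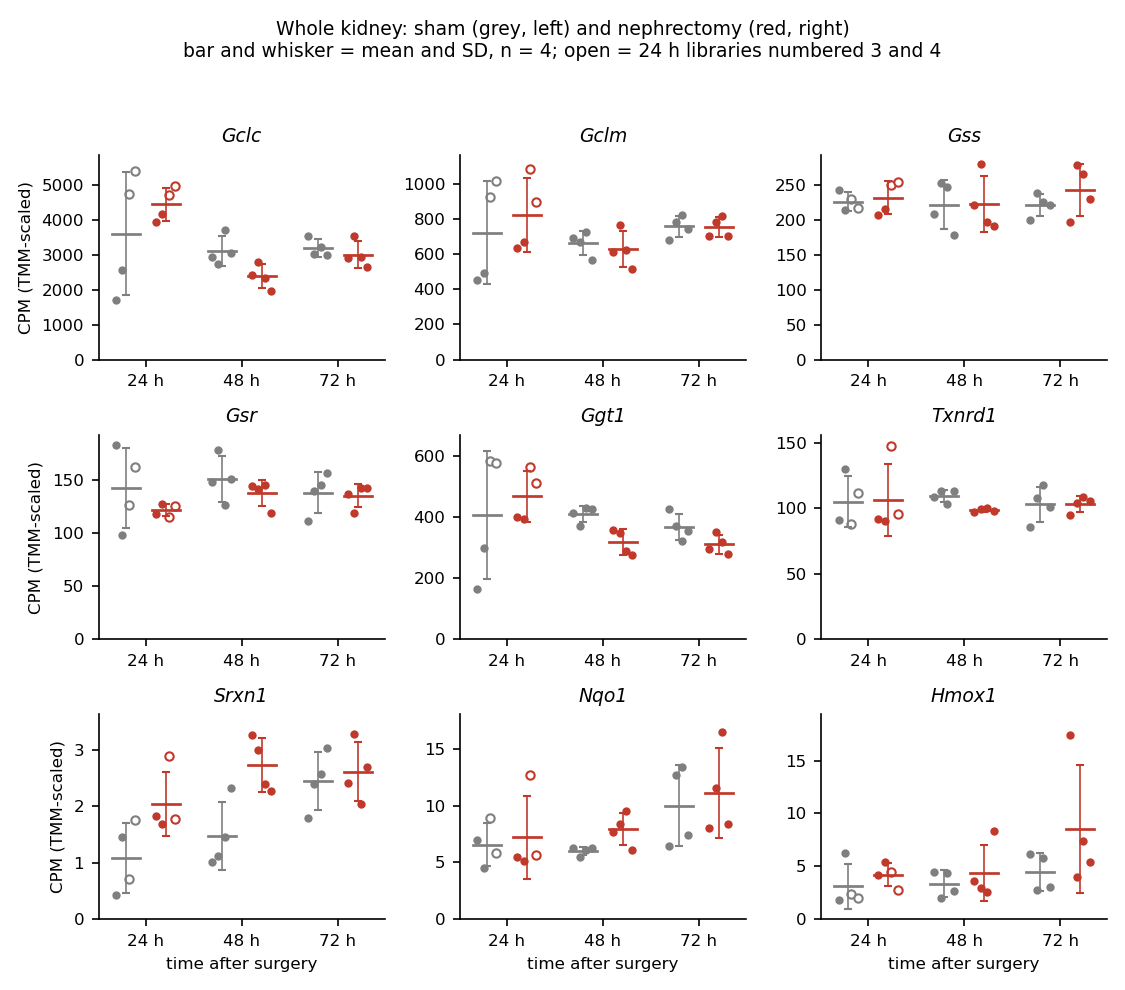
CPM of each gene in the 24 whole kidney libraries, by time and surgery (grey sham, red nephrectomy; mean and SD, n = 4); open points are the 24 h libraries numbered 3 and 4. These open points top the panels of Gclc, Gclm and Ggt1 at 24 h in both surgeries, and for Srxn1 the nephrectomy means of 2.05 and 2.74 CPM at 24 and 48 h lie above the sham means of 1.09 and 1.48.

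In S1 tubules 0 of 9 genes passed at 24, 48 or 72 h or over the times (0% of 18372 genes passed in each). Simulated 2-fold changes were recovered in only 4% of cases for this segment at 24 h and 52% over the times. A lack of calls therefore does not exclude such changes. At an unadjusted p under 0.05 there was 1 member at 72 h and 1 over the times, beside 13.2% and 2.54% of all genes; DESeq2 called 0 members in all 4 comparisons. Nqo1 was the member at 72 h: it had 0.809, 2.15, 2.53 and 0.968 CPM after nephrectomy and 0.407, 0.0715, 0.255 and 0.921 after sham. Each nephrectomy library lay above the sham mean, with overlap at the upper sham value. The log2 fold change was 1.99 ± 0.92 (95% interval 0.10 to 3.88, edgeR adjusted p = 0.358), and 1.85 ± 0.88 without the library that stood apart. These values rest on 3 to 142 reads per library.

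Srxn1 in S1 tubules was at the limit of detection. At 24 h the nephrectomy libraries had 15, 3, 4 and 1 reads and the sham libraries 1, 0 and 0. The CPM values did not overlap, the only such member in S1 tubules (3.39% of all genes at 24 h, 5.73% at 48 h and 1.16% at 72 h), and counts this low do not order the libraries. Over the times the log2 fold change was 2.09 ± 0.92 (95% interval 0.19 to 3.98, edgeR adjusted p = 1). At 72 h the reads came mostly from nephrectomy libraries 3 (63 reads) and 2 (31 reads, the library that stood apart), and without the latter the value was 1.56 ± 0.88.

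Genes of synthesis and recycling stayed within wide bounds in this segment. Over the times Gclc was at -0.23 ± 0.20 (95% interval -0.64 to 0.19), Gclm at -0.34 ± 0.22 (-0.79 to 0.11), Gss at -0.14 ± 0.28, Gsr at -0.06 ± 0.26, Ggt1 at -0.05 ± 0.30 and Txnrd1 at 0.10 ± 0.15. At 72 h Hmox1 had 5.44, 0.126, 9.74 and 13.5 CPM after nephrectomy, and 3.77, 5.48, 1.84 and 2.17 after sham. Its lowest value is the library that stood apart. The log2 fold change was 1.12 ± 0.68 with it and 1.51 ± 0.49 without it (edgeR adjusted p = 0.496 and 0.994).

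Glomeruli likewise had 0 of 9 genes past the threshold at any time or over the times (0% of 22405 genes passed in each), and 0 members at an unadjusted p under 0.05 or by DESeq2. Recovery of simulated 2-fold changes was 4% at 24 h and 54% over the times, so such changes are not excluded here either. The groups overlapped for all 9, while they did not for 2.8%, 2.05% and 1.12% of all genes at 24, 48 and 72 h. Txnrd1 lay nearest: at 72 h it had 91, 104, 93.9 and 78.6 CPM after nephrectomy and 68.9, 62.6, 64 and 89.5 after sham. Over the times its log2 fold change was 0.25 ± 0.13 (95% interval -0.02 to 0.52, edgeR adjusted p = 1), with 9 of 12 nephrectomy libraries above the sham mean. Gclm stood at 0.23 ± 0.22, Gclc at 0.11 ± 0.16 and Gsr at 0.01 ± 0.18. Srxn1 at -0.29 ± 0.64 and Ggt1 at 0.58 ± 0.49, both low here, had the widest errors.

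The difference of the effect between glomeruli and S1 tubules passed for 0 of 9 genes (0% of 24488), with 1 member at an unadjusted p under 0.05 and 0 by DESeq2. That member was Srxn1, at -2.25 ± 1.05 for glomeruli minus S1 (95% interval -4.37 to -0.14, edgeR adjusted p = 1). The difference between times passed for 0 of 9 in whole kidney (0.0191% of genes passed), S1 tubules (0.0109%) and glomeruli (0.00446%), with 0 members at an unadjusted p under 0.05 and 0 by DESeq2.

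**Figure D4:**
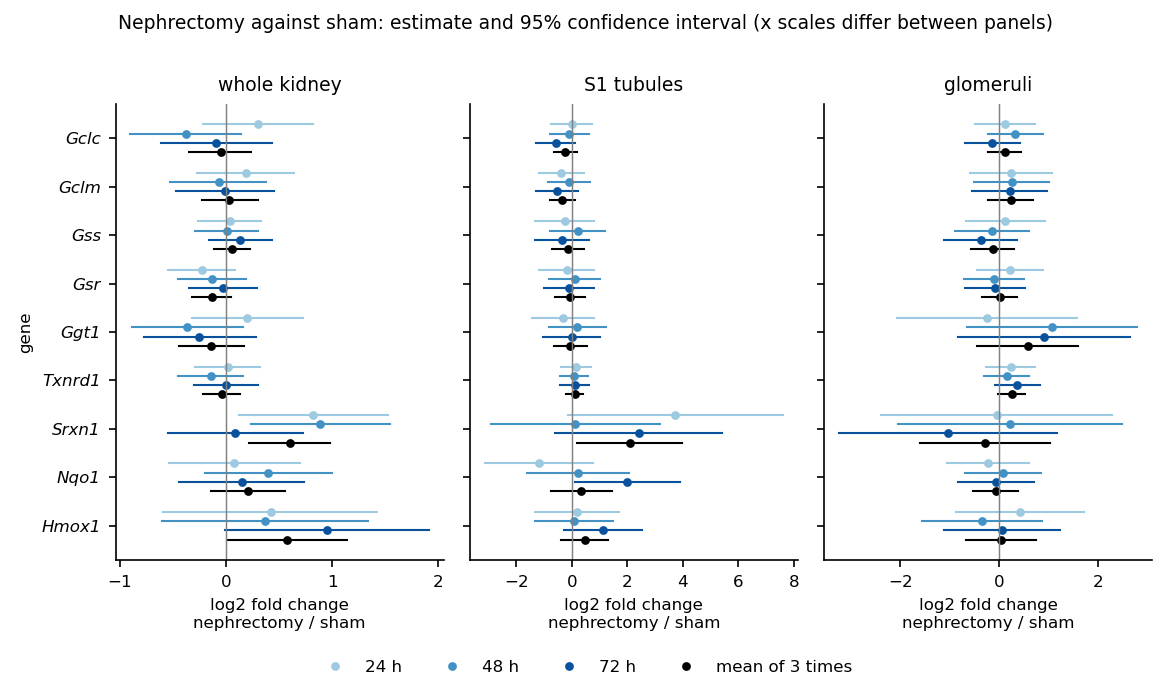
Log2 fold change of nephrectomy over sham with 95% confidence intervals for the 9 genes in each tissue, by time (blue) and as the mean of the 3 times (black); the x scales differ between panels. In whole kidney the intervals of Srxn1 at 24 h, 48 h and over the times (0.60) and of Hmox1 over the times (0.58) lie above 0 though no adjusted p passes, and Gss, Txnrd1 and Gsr have the narrowest intervals.

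Further genes of the pathway came from 6 lists of 116 symbols, of which 109 were found. The lists were chosen with earlier results of these data known. Among NRF2 and its partners 0 of 10 passed in whole kidney over the times. Nfe2l2 itself stood at -0.16 ± 0.07 in whole kidney (95% interval -0.30 to -0.02, edgeR adjusted p = 0.221), below the sham mean in 10 of 12 nephrectomy libraries, at -0.13 ± 0.16 in S1 tubules and at 0.17 ± 0.16 in glomeruli. Keap1 was at 0.02 ± 0.05 in whole kidney, -0.24 ± 0.21 in S1 tubules and -0.02 ± 0.22 in glomeruli. After sham surgery Nfe2l2 was lower in glomeruli than in S1 tubules under TMM scaling, with a log2 fold change of -1.57 ± 0.20 (edgeR adjusted p = 3.93e-09), but stood at 0.18 ± 0.15 with library totals (adjusted p = 0.253), so its direction there rests on the scaling. Of 106 listed genes 13 were higher and 74 lower in glomeruli (21.1% and 18.6% of all genes), or 37 higher and 52 lower with library totals.

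In whole kidney 9 of 103 tested genes of the lists fell over the times and 0 rose, beside 1.17% of all genes lower and 1.69% higher. The lists' median log2 fold change was -0.11, and that of all genes -0.01. Because earlier results were known when the lists were chosen, these figures describe the lists and add no support. Of 28 glutathione peroxidases, transferases and glutaredoxins, 5 fell, and all 5 are transferases: Gsta2 by 0.98 on the log2 scale (SE 0.23), Gsta5 by 0.65 (SE 0.15), Gsto1 by 0.49 (SE 0.10), Gsta4 by 0.48 (SE 0.10) and Mgst3 by 0.63 (SE 0.17). Gsta2, Gsta4 and Gsta5 are related alpha-class transferases. Reads without a unique placement are not in the gene counts, and the part of sequence likeness in these values was not tested. Gsta2 had 17 ± 7.97 CPM after nephrectomy and 45 ± 20.6 after sham at 48 h (SD, n = 4), with no overlap, from 8.52 to 24.9 and from 28.5 to 73.2. At that time 7.23% of all genes did not overlap. The Gsta2 groups overlapped at 24 h (5.79 to 20.1 and 10.3 to 38.3). They did not at 72 h (10.4 to 14.8 and 15.6 to 31.5, beside 10.8% of all genes). Gsta3 of the same class stood at 0.34 ± 0.11 (edgeR adjusted p = 0.112).

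Of 23 other NRF2 targets 3 fell: Idh1, a cytosolic source of NADPH, by 0.57 (SE 0.12), Nqo2, a quinone reductase, by 0.50 (SE 0.11) and Ugdh, which makes UDP-glucuronate, by 0.46 (SE 0.10). Sod1, the copper-zinc superoxide dismutase, fell by 0.40 (SE 0.10), as 1 of 7 superoxide and hydrogen peroxide enzymes. Of 18 genes of breakdown, uptake and export and of 17 thioredoxin and peroxiredoxin genes 0 passed. For 8 of these 9 genes (Mgst3 was not counted), 12 of 12 nephrectomy libraries lay below the sham mean of their time. The 9 genes were picked as lower in these same libraries, so that tally restates the choice and adds no support. None of the 9 passed in S1 tubules or glomeruli, where 0 of 104 listed genes passed; in S1 tubules Ggct, which acts in glutathione breakdown, stood at -0.85 ± 0.20 (edgeR adjusted p = 0.824).

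The summed early proximal tubule markers were lower at 24 h: 5022 to 5891 CPM after nephrectomy and 6249 to 8364 after sham, without overlap. At that time 3.31% of all genes did not overlap, and 0 of 103 listed genes passed. The early markers overlapped at 48 h (4845 to 6478 and 5209 to 7020) and, narrowly, at 72 h (5480 to 6356 and 6327 to 8177). Those of the late proximal tubule overlapped at each time: 2005 to 2560 and 1464 to 3004 at 24 h, 1025 to 1943 and 1520 to 2220 at 48 h, and 1727 to 1896 and 1699 to 1910 at 72 h. All 9 genes that fell were lower in glomeruli than in S1 tubules after sham, from -3.10 for Sod1 to -8.21 for Gsta5, or -1.36 to -6.45 with library totals. Most listed genes shared this: 74 of 106 were lower in glomeruli, beside 18.6% of all genes. The part of these markers in the lower levels was not tested. Without the 24 h libraries numbered 3 and 4, 16 listed genes fell; DESeq2 gave 15, library totals 1 and limma on log2 values 0. Of the 9 named genes, Gsta2 (-0.72, edgeR adjusted p = 0.0796) and Sod1 (-0.36, adjusted p = 0.0694) no longer passed without those libraries. With single libraries left out, Mgst3 passed in only 7 of 24 fits (-0.70 to -0.41) and Sod1 in 17 of 24 (-0.46 to -0.36).

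**Figure D5:**
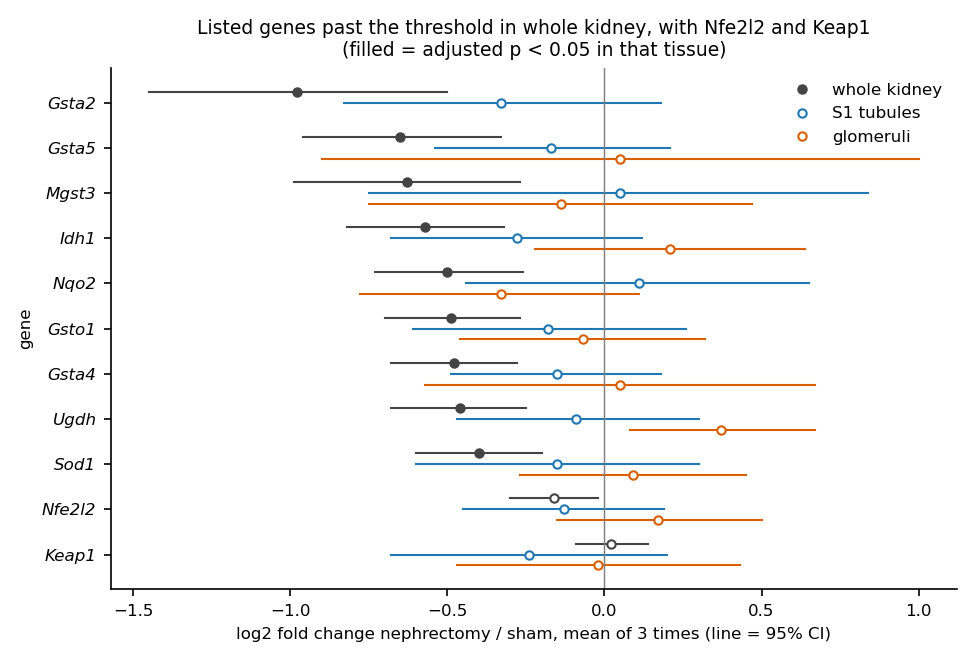
Log2 fold change of nephrectomy over sham as the mean of 3 times, with 95% intervals, for the 9 listed genes past the threshold in whole kidney and for Nfe2l2 and Keap1, in each tissue; filled points passed in that tissue, and Gsta2 was not tested in glomeruli. In whole kidney the 9 genes run from -0.98 (Gsta2) to -0.40 (Sod1), and Nfe2l2 lies at -0.16, not past the threshold.

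Across the 18 group means of tissue, surgery and time, the genes of most similar pattern (Pearson r of log2 CPM among 11671 genes) mostly followed tissue. For Gclc they were Ccdc107 and Fth1 (both 0.994), the latter encoding ferritin heavy chain, a textbook NRF2 target. For Gclm they were Pdgfra and Nadsyn1 (0.993), for Ggt1 Rbm47 and Aadat (0.992), for Gsr Ust5r and Cluh (0.990) and for Gss Phb (0.987) and AC095947.2 (0.978). Nqo1 was closest to Gpsm1 (0.982) and Hif1an (0.980), and Txnrd1 to Slc39a8 and Eps8 (0.948). Srxn1 was closest to Olr1668 (0.949) and SNORA48 (0.947), and Hmox1 to Tacc3 (0.909) and Kif2c (0.899), which encode mitotic spindle proteins. The points share 3 tissues and 2 kits, and these values are a description without a test.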

How the data were processed

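The authors deposited whole-number read counts per gene for all libraries, and RPKM for glomeruli and S1 tubules and FPKM for whole kidney, per the file headers; both were checked to be proportional to the counts within each gene after library scaling. Trimmomatic 0.32, STAR 2.4.0.1, SAMtools and HTSeq were used, per the submitters' processing notes; build, annotation and strand setting were not given in the sources used here. The labels describe no molecular identifiers. The 9 genes and all lists were chosen with earlier results of these data known. Named genes were all 9, up to 4 members of each list with the smallest p past the threshold, Nfe2l2 and Keap1, and the 2 genes of most similar pattern; Mgst3, Ggct and Gsta3 were added after seeing values. Counts were tested with edgeR 4.0.16 in R 4.3.3 (TMM, filterByExpr with minimum count 10, quasi-likelihood F test, Benjamini-Hochberg over all genes tested, threshold 0.05), per tissue with a mean per surgery and time (23 glomerulus, 23 S1 and 24 whole kidney libraries), and in a joint fit of both segments. SE is the log2 fold change over the root of F. DESeq2 1.42.0 and limma 3.58.1, other scalings and omitted libraries were alternatives. The procedure was tested on simulated data. For 2-fold changes at 24 h it recovered 4% with either segment, against 71% with whole kidney. For 4-fold changes at 24 h recovery was 54% (glomeruli), 46% (S1) and 95% (whole kidney). Over the times, 2-fold recovery was 54% (glomeruli), 52% (S1) and 97% (whole kidney).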

Additional observations from a re-analysis of the deposited data

Results flagged for a closer look

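Of 144 groups of 4 libraries tested for a single value far from the others by Dixon's criterion, 8 had one; chance gives about 1 in 20. In whole kidney, the nephrectomy 24 h library numbered 3 had the highest Nqo1 (12.7 CPM, others 5.08 to 5.68), Txnrd1 (148, others 90.7 to 96) and Srxn1 (2.89, others 1.68 to 1.83). It is also the library with the fewest gene counts of that tissue (10.1 M) and 93.9% of reads without a unique placement; the part of these in the values was not tested. The sham 24 h library numbered 2 of whole kidney had 6.25 CPM of Hmox1 (others 1.77 to 2.39). In glomeruli, Gss was 97 CPM in the sham 72 h library numbered 4 (others 30.8 to 41.6), and Gsr was 30.6 in the nephrectomy 24 h library numbered 1 (others 18.6 to 18.9). In S1 tubules, Gss was 41 CPM in the nephrectomy 48 h library numbered 4 (others 28.8 to 30.7), and Srxn1 0.426 in the sham 48 h library numbered 3 (others 0 to 0.0441).

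The omitted sham 24 h pair numbered 2 lay outside its labelled segment for several genes, and within the range of the other segment for all of these but Gclc. The library labelled glomeruli had 34.1 RPKM of Gclm (the others of that label 4.29 to 18.5), 45.8 of Gsr (6.35 to 17.1), 37.6 of Ggt1 (0.146 to 4.12), 37.5 of Txnrd1 (14.6 to 37) and 0.472 of Nqo1 (2.44 to 9.14). Its Gclc, 28.7 RPKM, was above both the others of its label (6.9 to 20.6) and the S1 libraries (8.69 to 28). The library labelled S1 tubules had 8.76 RPKM of Gclm (9.6 to 46.2), 14.7 of Txnrd1 (17.3 to 49.4) and 4.07 of Nqo1 (0 to 1.37). Their mitochondrial shares were 51.2% and 22.1%, against 9.9 to 22.9% in the other glomerulus libraries and 41.3 to 72.3% in the other S1 libraries.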

How the results depend on the processing

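Leaving out the whole kidney 24 h libraries numbered 3 and 4 gave 2 members called at 24 h and 2 whose effect differed between times (Gclc and Ggt1 in each), against 0. In whole kidney over the times, DESeq2 called 1 member, and leaving out single libraries called 0 to 1 (1 without sham 24 h library 2, sham 24 h library 4 or sham 48 h library 4), Srxn1 each time. Every remaining alternative called 0 members there. Between glomeruli and S1 tubules 7 to 8 members passed; Hmox1 turned from -0.51 to 1.21 with library totals, 0.85 with limma on log2 (value + 1) and 1.15 with log2 (value + 0.1), all called. Gss was then at -0.38, -0.23 and -0.24, not called. In the same comparison Srxn1 was called at 3.04, 0.63 and 2.03, and at 2.14 without S1 sham 48 h library 3. The other comparisons of members gave 0 in each alternative run. Of 5326 values under all alternatives, 5227 stayed on the same side of the threshold and either kept their direction or moved by less than their error. Of the values called in neither fit, 255 of 4064 had another sign.

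Over all genes, whole kidney at 24 h gave 37 calls, 307 by DESeq2, 2645 without the libraries numbered 3 and 4, and 0 with library totals; over the times it gave 448, 865 by DESeq2, 785 without those libraries, 121 with library totals and 0 with limma. S1 tubules at 72 h gave 0, and 759 by DESeq2. Glomeruli against S1 tubules gave 9721, and 21296 with library totals. Listed genes that fell in whole kidney numbered 7 to 15 without single libraries, with 1 that rose in 1 such fit.

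Libraries with the same number did not all deviate together: correlations of their deviations between surgeries lay between -0.328 and 0.444 for glomeruli (2 of 11 pairs over 0.1; 2 of 11 libraries correlated best with their own number), between -0.216 and 0.538 for S1 tubules (7 of 11; 3 of 11) and between -0.165 and 0.337 for whole kidney (6 of 12; 3 of 12). All pairs were over 0.1 for S1 tubules at 24 h (0.138 to 0.538) and 48 h (0.164 to 0.269) and for whole kidney at 72 h (0.114 to 0.337). Between segments they lay from -0.583 to 0.526 (17 of 23; 13 of 23). Numbers were not taken as pairs in the main fits. Between surgeries these data hint at pairs for some groups only. Between segments the hint is stronger, with 13 of 23 libraries correlating best with their own number. The main segment test took all libraries as independent. A fit with the replicate block left each count of members called as it was (0 for nephrectomy, 7 between segments) and gave 124 genes in place of 37 in whole kidney at 24 h. Low counts limit Srxn1: 5 of 11 S1 sham and 0 of 11 glomerulus sham libraries held 0 reads, although the S1 libraries were the deeper (median 23.82 against 10.97 M).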
